A study of Populus trichocarpa with 9 samples.

Results

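PtrHSFB3-1 (Potri.006G049200) and PtrMYB092 (Potri.001G118800) are the 2 transcription factors (TFs) that were overexpressed in this study, and they are described here as 2 of the 41335 genes of the deposited table. They were taken by their gene IDs. For each TF the amount of transcript in every library (its dose) is given, then its level under the construct of the other TF, then the response of the monolignol genes beside the dose. Protoplasts of stem-differentiating xylem (SDX), which are wood-forming cells freed of their walls, came from 6-month-old trees of Populus trichocarpa genotype Nisqually-1, which are clonal. They were transfected by the PEG method with pUC19-35S-PtrHSFB3-1-35S-sGFP, with pUC19-35S-PtrMYB092-35S-sGFP or, as the control, with pUC19-35S-sGFP. All 3 groups therefore expressed sGFP, each TF was driven by the 35S promoter, and the protoplasts were incubated for 12 h before RNA-seq of 3 libraries per construct. Title and treatment tag agree for all 9 libraries, whereas the description field of PtrMYB092 replicates 2 and 3 names the other TF.

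PtrHSFB3-1 is a heat-shock factor of class B. Heat-shock factors bind heat-shock elements in promoters through a conserved DNA-binding domain, and class B members lack the activation motif of class A, so several of them are known as repressors or co-regulators in other plants. PtrMYB092 is an R2R3-MYB, a large family of plant TFs of which several members switch on phenylpropanoid and secondary wall genes in xylem. The monolignol pathway turns phenylalanine into the alcohols that polymerise to lignin. PAL, C4H and 4CL make p-coumaroyl-CoA, HCT, C3H, CSE and CCoAOMT carry it to the guaiacyl level, CCR reduces the CoA esters to aldehydes and CAD the aldehydes to alcohols, and CAld5H and AldOMT add the syringyl branch.

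Each gene has 1 value per library, which sums transcripts from the plasmid and from the chromosomal copy. The primers that the study designed to clone the coding sequences into pENTR are shown because they define what the plasmids carried. Capitals mark the CACC added for directional cloning and the CTA that is the complement of a stop codon.
PtrHSFB3-1 pENTR forward: CACCgtaatatcatccaataatctccttt
PtrHSFB3-1 pENTR reverse: acagcaacaacaacagagaatac
PtrMYB092 pENTR forward: CACCctctttctctccctccataca
PtrMYB092 pENTR reverse: CTAgtgcttgtgttccatctc
After the CACC, the forward primer of PtrHSFB3-1 has 25 bases of the gene and that of PtrMYB092 has 21, and neither starts at an ATG. The reverse primer of PtrMYB092 starts at the complement of the stop codon, and that of PtrHSFB3-1 does not. The study used another vector, pBI121, to transform whole trees, whereas the protoplast plasmids were made from the pENTR clones. The forward primers made for pBI121 begin their gene-specific part at the start codon of each gene. These parts are shown with the start codon or the complement of the stop codon in capitals, and do not describe the plasmids of these libraries.
PtrHSFB3-1 pBI121 forward: ATGgcagatgacaagggttta
PtrHSFB3-1 pBI121 reverse: TTAttgagatagtaaaatggttgcac
PtrMYB092 pBI121 forward: ATGggaaggcaaccttgctgt
PtrMYB092 pBI121 reverse: CTAgtgcttgtgttccatctctaa

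The deposited numbers are whole and labelled as raw counts, but the low ones scatter less than reads can. In the 36 possible pairs of libraries, a total of 2 was split evenly (1 and 1) for 81.9% to 97.5% of the genes with that total, and random reads would do so for at most 50%. They were treated as values on a scale that is not given, so sequencing depth per gene is unknown and the precision is set by the number of libraries. The column totals were 428358 to 495579. The secondary wall cellulose synthase genes PtrCesA4, PtrCesA7, PtrCesA8, PtrCesA17 and PtrCesA18, which mark xylem cells that build a secondary wall, were at 0 to 2 in all 9 libraries, so these markers of the labelled tissue were at or near 0. The reference gene PtrActin was at 86 to 113. The study terms its 3 libraries per construct biological replicates. Whether they came from separate trees is not stated, and the p-values cover the spread among these 9 libraries. Libraries that share a replicate number deviated together, and the meaning of the number is not given.

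Each TF was high in the libraries of its own construct, and its dose differed by up to 2.56-fold between them. PtrHSFB3-1 was at 67, 53 and 61 in GFP replicates 1, 2 and 3, and at 19859, 31149 and 42965 in the PtrHSFB3-1 libraries of the same numbers. The groups were far apart, and the dose was lowest in replicate 1 and highest in replicate 3. It was the gene with the highest value in each of these 3 libraries and made up 4.01%, 6.85% and 9.08% of the column total. Relative to the GFP library of the same number the value was 296, 588 and 704 times as high. Scaled by TMM, a correction for the composition of each library, it averaged 55.0 ± 6.17 (SD, n = 3) with GFP and 33185 ± 11241 (SD, n = 3) with its own construct. On the log2(scaled value + 1) scale the difference was 9.16 (SE 0.30; adjusted p = 2.33e-06, limma with Benjamini-Hochberg adjustment over 7653 genes).

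With GFP, the values of PtrMYB092 were 4, 5 and 4, and in PtrMYB092 replicates 1, 2 and 3 they were 6922, 11036 and 17727. It was low in the control and the highest gene of each of its own libraries, with 1.57%, 2.58% and 3.96% of the column total. The dose was again lowest in replicate 1 and highest in replicate 3. The scaled values averaged 3.95 ± 0.54 (SD, n = 3) with GFP and 12011 ± 5547 (SD, n = 3) with its own construct, a log2 difference of 11.15 (SE 0.32; adjusted p = 6.31e-07, limma). The gene passed the filter on low values only through its own libraries, so this difference was a condition of its being tested. An exact permutation test of 3 against 3 libraries cannot give less than p = 0.1, two-sided, and gave p = 0.1 for both TFs in their own libraries.

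After scaling, PtrHSFB3-1 replicates 2 and 3 had 1.36 and 1.97 times the dose of replicate 1, and PtrMYB092 replicates 2 and 3 had 1.49 and 2.51 times that of replicate 1. Both ranges are small beside the difference from the control, at 0.97 and 1.33 on the log2 scale. Both TFs had their lowest dose in replicate 1 and their highest in replicate 3, so the order of the dose and the replicate number cannot be told apart within a construct. That order was found in all 3 groups at once for 430 of 7651 other genes (5.62%), and the opposite order for 434 (5.67%). One of the 430, named after its values were seen, was Potri.001G068900, the gene with the highest value in the GFP libraries. It was at 7285, 10247 and 18510 with GFP, at 3332, 3914 and 8110 with PtrHSFB3-1, and at 4897, 5977 and 12846 with PtrMYB092. Its highest value was thus 2.54, 2.43 and 2.62 times its lowest in the 3 groups, a range as wide as that of the dose of PtrMYB092 and present in the control.

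**Figure D1:**
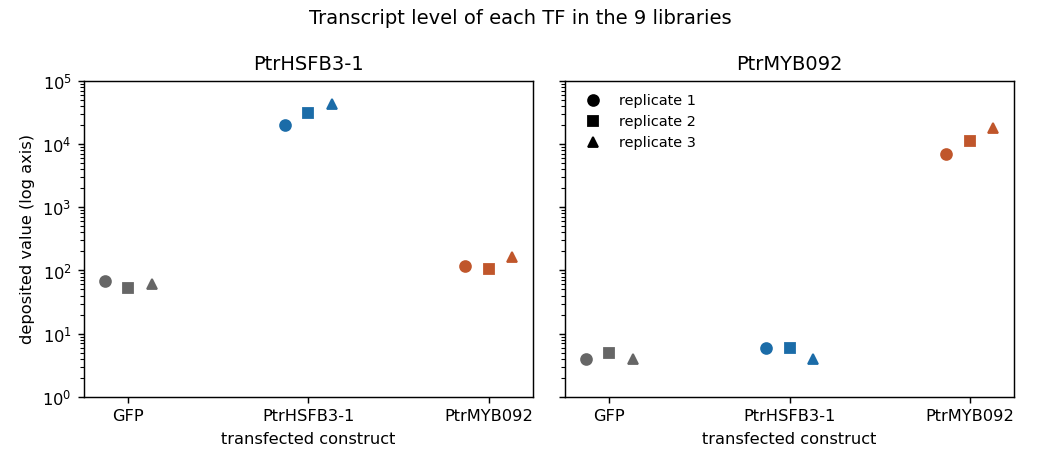
Deposited value (log axis) of PtrHSFB3-1 (left) and PtrMYB092 (right) in the 3 libraries of each construct, 1 point per library with its shape giving the replicate number. Each TF is high in its own libraries, from 19859 to 42965 and from 6922 to 17727, and PtrHSFB3-1 lies above the GFP points in the PtrMYB092 libraries.

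PtrHSFB3-1 was about 2-fold higher in the libraries of the other TF. It was at 119, 105 and 165 in PtrMYB092 replicates 1, 2 and 3, beside 67, 53 and 61 in the GFP libraries. All 3 values lay above all 3 GFP values and were 1.78, 1.98 and 2.70 times that of the GFP library of the same number. With PtrMYB092, 13.9% of the 7653 genes tested had all 3 libraries above all 3 GFP libraries, and with PtrHSFB3-1 20.4% did. The scaled mean was 131 ± 33.7 (SD, n = 3), against 55.0 ± 6.17 (SD, n = 3) with GFP. The log2 difference was 1.22 (SE 0.30), a 2.33-fold difference with a 95% interval of 1.46 to 3.70, and it passed the threshold by a small margin (adjusted p = 0.0459, limma). It was thus 1 of the 352 genes, 4.6% of those tested, that were called higher with PtrMYB092 (fold change over 2, adjusted p under 0.05). The exact permutation test gave p = 0.1, the smallest it can give.

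The direction of this difference held in all settings, and the call did not. With the replicate number as a block the adjusted p was 0.00348 (SE 0.21, limma). The call was lost in 7 of the 9 fits that left out a single library, with an adjusted p of 0.0721, 0.144 and 0.137 without GFP replicates 1, 2 and 3, of 0.115, 0.083 and 0.198 without PtrMYB092 replicates 1, 2 and 3, and of 0.0751 without PtrHSFB3-1 replicate 2 (limma). The log2 difference in the 9 fits was 1.04 to 1.40. Other scalings gave 1.12 to 1.17 with an adjusted p of 0.072 to 0.0869 (limma). These fits and those with a library left out had no block, and the fit with the block was not repeated in these settings. The value of PtrHSFB3-1 in the PtrMYB092 libraries was 0.34% to 0.60% of that in the PtrHSFB3-1 library of the same number, and transfer of reads between libraries was not tested. In these bulk samples, more transcript per cell and more transcribing cells cannot be told apart.

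PtrMYB092 was at 6, 6 and 4 in PtrHSFB3-1 replicates 1, 2 and 3, beside 4, 5 and 4 in the GFP libraries. The groups overlapped, and the ratios to the GFP library of the same number were 1.5, 1.2 and 1. The scaled means were 5.73 ± 1.40 (SD, n = 3) and 3.95 ± 0.54 (SD, n = 3). The difference of 0.43 (SE 0.32) on the log2(scaled value + 1) scale, with a 95% interval of -0.30 to 1.15, did not pass the threshold (adjusted p = 0.418, limma; exact permutation p = 0.2). At values this low the added 1 makes this difference smaller than that of the level itself. With the replicate block the adjusted p was 0.275 (limma). The values are thus compatible with no difference and with any difference within this interval. The intervals of both cross-effects overlap, and the difference between them was not tested, since they are measured on different genes.

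**Figure D2:**
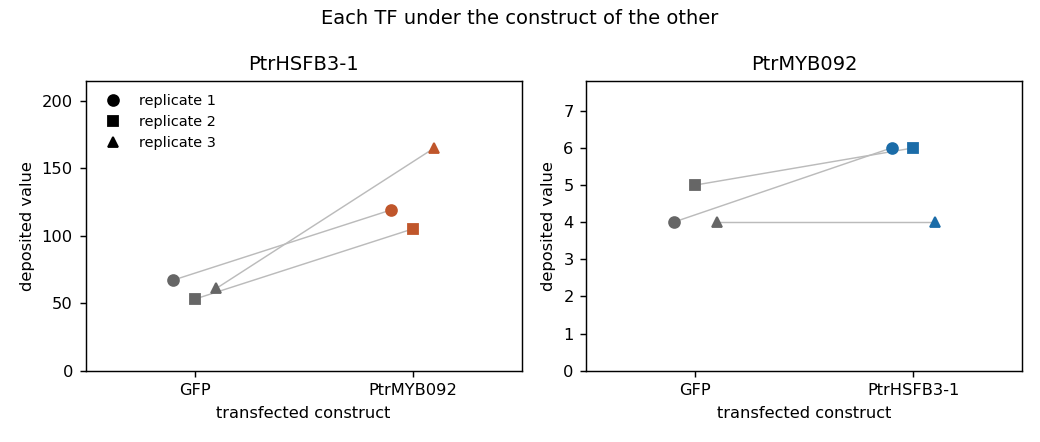
Deposited value (linear axis from 0) of PtrHSFB3-1 in the GFP and PtrMYB092 libraries (left) and of PtrMYB092 in the GFP and PtrHSFB3-1 libraries (right), with a grey line between libraries of the same number. PtrHSFB3-1 goes from 53 to 67 with GFP to 105 to 165 with PtrMYB092, while PtrMYB092 stays at 4 to 6.

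The level of PtrHSFB3-1 in the PtrMYB092 libraries can be set beside the dose of PtrMYB092. Over the GFP library of the same number the log2 response was 1.02, 1.06 and 1.58 at doses of 6922, 11036 and 17727. This is the order of the dose, which 16.6% of the 7651 other genes had too. The level itself was not in that order, as replicate 2, with 105, was below replicate 1, with 119. The highest PtrHSFB3-1 level and the highest PtrMYB092 dose were in the same library, replicate 3.

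The pattern of each TF over the 9 libraries was compared with that of every other tested gene by Pearson's r on the log2 scale, given here as a description. Each TF is far higher in its own 3 libraries than in the other 6, and r weighs mainly that difference. The gene most like PtrHSFB3-1 was Potri.003G133400 (r = 0.994). It was at 2, 2 and 1 with GFP, at 53, 61 and 104 with PtrHSFB3-1 and at 2, 2 and 4 with PtrMYB092. It passed the filter on low values only through the PtrHSFB3-1 libraries. Its highest level was in PtrHSFB3-1 replicate 3, as for the TF, which the choice by r favours. The least alike was Potri.003G053400 (r = -0.989), at 59, 57 and 56 with GFP, 22, 26 and 22 with PtrHSFB3-1, and 47, 47 and 40 with PtrMYB092.

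The gene most like PtrMYB092 was Potri.001G096900 (r = 0.998), which was listed at 0 in all 6 libraries of the other groups and at 40, 40 and 67 in the PtrMYB092 libraries. It passed the filter only through the latter. The least alike was Potri.005G247600 (r = -0.968), at 12, 12 and 14 with GFP, 11, 11 and 12 with PtrHSFB3-1, and 7, 7 and 6 with PtrMYB092. The sources used here pair these 4 IDs with no name. Among the 20 monolignol genes tested, r with PtrMYB092 was highest for PtrC4H2 (0.95) and lowest for PtrCAld5H2 (0.22). With PtrHSFB3-1 it was highest for PtrCSE1 (0.52) and lowest for PtrHCT1 (-0.58).

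Of the 22 monolignol genes named in the study's tables, 20 passed the filter on low values. The list was partly drawn up on these libraries, so its counts are not independent evidence of a direction. With PtrHSFB3-1, 11 of the 20 were called higher and 0 lower, where 7.08% of all genes were called higher and 3.01% lower. Their median log2 difference was 1.90, against 0.01 over all genes tested. Those not called were PtrPAL1, PtrPAL3, PtrC4H2, PtrHCT1, PtrHCT6, PtrCSE2, PtrCAD1, PtrCAld5H2 and PtrAldOMT2. With the replicate block 15 were higher and 1, PtrHCT1, was lower, where 10.2% and 16.9% of all genes were. With PtrMYB092, 18 of the 20 were called higher and 0 lower, where 4.6% of all genes were called higher and 0.366% lower, and the median was 4.08 against -0.05. PtrCAD1 and PtrCAld5H2 were not called. PtrHCT1 and PtrHCT6 passed the filter only through the PtrMYB092 libraries, so high values there were a condition of their being tested. PtrHCT6, for example, was at 4, 1 and 1 with GFP, 20, 4 and 4 with PtrHSFB3-1, and 61, 32 and 40 with PtrMYB092. With the block PtrCAD1 was called too, which gave 19 higher and 0 lower, where 6.06% and 7.63% of all genes were.

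The monolignol genes differed between libraries of the same construct, the control included. PtrPAL4, a phenylalanine ammonia-lyase of the entry step, was at 76, 8 and 3 in GFP replicates 1, 2 and 3. It was at 501, 207 and 255 with PtrHSFB3-1 and at 1363, 1033 and 1281 with PtrMYB092. Replicate 1 was thus the highest in each group. As a ratio of the highest to the lowest value, the spread was widest in the control, at 25.3. This ratio was 2.42 in the PtrHSFB3-1 libraries and 1.32 in the PtrMYB092 libraries. PtrC4H1, which hydroxylates cinnamic acid, was at 113, 11 and 13 with GFP, at 449, 207 and 285 with PtrHSFB3-1, and at 585, 363 and 599 with PtrMYB092. PtrCCoAOMT2, a methyltransferase, was at 162, 43 and 46, at 755, 265 and 398, and at 2536, 1648 and 2711 in the same order of groups. Both also had an excess in GFP replicate 1, with a ratio of highest to lowest GFP value of 10.3 for PtrC4H1 and 3.77 for PtrCCoAOMT2. With PtrMYB092 their replicates 1 and 3 were close to each other.

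GFP replicate 1 was the highest GFP library for 17 of the 20 monolignol genes, where 34.4% of all 7651 genes tested had their highest GFP value there. The exceptions were PtrCSE2, PtrCAD1 and PtrCAld5H2. PtrCAD1, a cinnamyl alcohol dehydrogenase, was at 62, 129 and 94 with GFP, at 48, 110 and 69 with PtrHSFB3-1, and at 147, 245 and 193 with PtrMYB092, so that replicate 1 was the lowest in each group. PtrHSFB3-1 replicate 1 was the highest of its group for 18 of the 20 genes (42.5% of all genes), and PtrMYB092 replicate 1 for 10 (39.3% of all genes), a share near that over all genes. The median log2 level of the 20 genes was 5.56, 4.42 and 4.34 in the GFP libraries, 7.02, 6.19 and 6.19 in the PtrHSFB3-1 libraries, and 8.38, 7.93 and 8.42 in the PtrMYB092 libraries. The median difference of replicate 3 from replicate 1 was -1.34, -0.99 and -0.06 in the 3 groups, where that over all genes lay between -0.03 and 0.01.

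**Figure D3:**
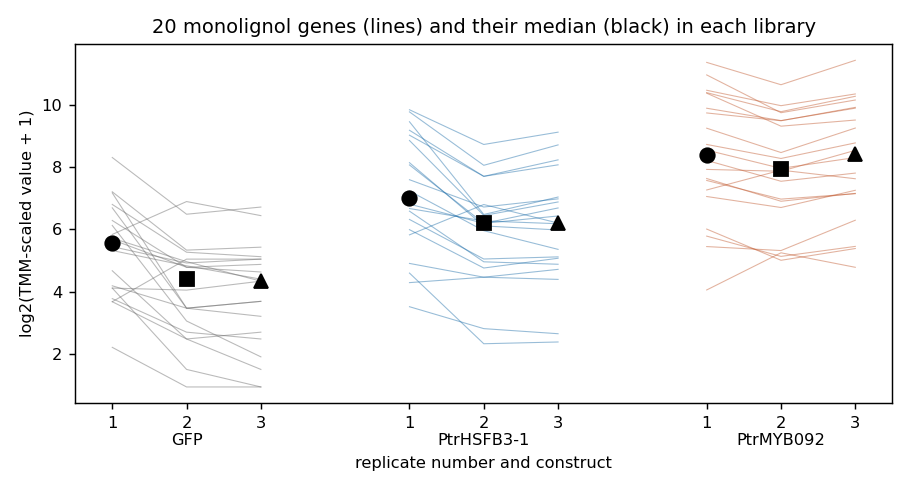
Level, as log2(TMM-scaled value + 1), of each of the 20 monolignol genes tested (a line per gene and group) and their median (black) in the 9 libraries, by replicate number. The median of GFP replicate 1 (5.56) lies above those of GFP replicates 2 and 3 (4.42 and 4.34), and PtrMYB092 replicates 1 and 3 are at 8.38 and 8.42.

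To ask whether the response follows the dose, each library was first set against the GFP library of the same number. With PtrMYB092, 16 of the 20 monolignol genes had responses in the order of the dose and 1 in the reverse order, where 16.6% and 22.2% of all genes did. The median response of the list was 3.29, 4.15 and 4.50 on the log2 scale at doses of 6922, 11036 and 17727. PtrPAL4 had responses of 4.34, 6.92 and 8.45, PtrPAL2 of 5.22, 7.02 and 8.40, and PtrC4H1 of 2.56, 5.00 and 5.57. The genes not in the order of the dose were PtrPAL3, PtrCAD1, PtrCSE2 and PtrCAld5H2, which in the syringyl branch had responses of 0.38, 0.20 and -0.26, the reverse order.

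With PtrHSFB3-1, 10 of the 20 had responses in the order of the dose and 4 in the reverse order, where 19.7% and 29.8% of all genes did. This contrast depended on the settings, with 13 of the 20 in the order of the dose beside 34.7% of all genes by column totals and 39.3% by column totals without the TFs, and with 7 of the 20 beside 19.6% at a pseudocount of 5. The 10 were PtrPAL2, PtrPAL3, PtrPAL4, PtrPAL5, PtrC4H1, Ptr4CL3, PtrHCT1, PtrCSE1, PtrCCoAOMT2 and PtrCCR2, and the 4 were PtrCSE2, PtrCAD1, PtrCAld5H2 and PtrAldOMT2. Of the 10, PtrHCT1 lay below the GFP library of the same number at each dose, with responses of -0.67, -0.66 and -0.56. PtrCSE1 hardly differed between the lower doses, with responses of 1.93, 1.94 and 2.35. Of the 5 PAL genes, 4 were in the order of the dose, and neither PtrCAld5H2 nor PtrAldOMT2, the syringyl-branch genes tested, was. With PtrMYB092, PtrAldOMT2 was in the order of the dose and PtrPAL3 was not. PtrPAL4 had responses of 3.06, 4.65 and 6.17 and PtrC4H1 of 2.33, 4.24 and 4.55, whereas PtrCAld5H2 had 0.61, -0.58 and -0.65. The median response of the list, 1.99, 1.69 and 2.07 at doses of 19859, 31149 and 42965, was not in the order of the dose.

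Set against the mean of the 3 GFP libraries in place of the GFP library of the same number, none of the 20 genes had responses in the order of the dose of either TF, where 17.9% of all genes did for PtrHSFB3-1 and 24.8% for PtrMYB092. For PtrHSFB3-1, 5 were in the reverse order (PtrPAL2, PtrC4H2, PtrHCT1, PtrCCR2 and PtrAldOMT2; 19% of all genes), and for PtrMYB092, 0 (25.1% of all genes). The median responses were then 2.86, 1.49 and 1.64 for PtrHSFB3-1, and 4.35, 3.70 and 4.09 for PtrMYB092. The levels within the libraries of a construct have the same order as these responses, since the same mean is subtracted from each. The order of the dose was thus seen only after the GFP library of the same number had been subtracted, and for these genes GFP replicate 3 itself had a median difference of -1.34 from GFP replicate 1 (log2).

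GFP replicates 2 and 3 differed less as a list, although single genes did differ, such as PtrPAL4 (8 and 3) and PtrC4H2 (33 and 21). The level was higher in replicate 3 than in replicate 2 for 8 of the 20 genes with GFP (47.6% of all genes), with a median difference of -0.07 on the log2 scale. With PtrHSFB3-1, whose dose was 31149 and 42965 in these libraries, it was higher for 13 of the 20 (51% of all genes), with a median of 0.24. With PtrMYB092, at doses of 11036 and 17727, it was higher for 18 of the 20 (49.1% of all genes), with a median of 0.39. Over the GFP library of the same number, and with replicate 1 of all 3 groups left out, 16 of the 20 had the larger response at the larger dose of PtrHSFB3-1 (51.6% of all genes) and 18 at the larger dose of PtrMYB092 (50.3%). A comparison of 1 library with 1 has no replicate check, and PtrCAD1 and PtrCAld5H2 had the lower level in PtrMYB092 replicate 3.

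**Figure D4:**
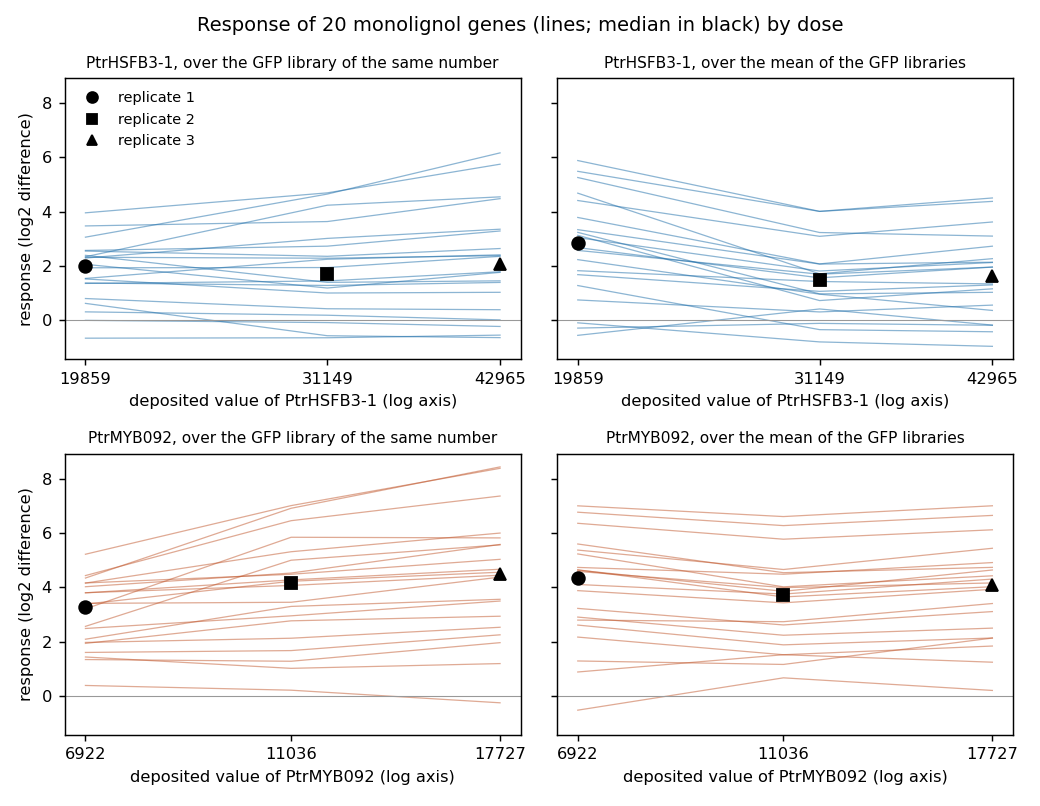
Response (log2 difference) of the 20 monolignol genes (lines) and their median (black) at the 3 doses of PtrHSFB3-1 (top) and PtrMYB092 (bottom), over the GFP library of the same number (left) and over the mean of the 3 GFP libraries (right). The median for PtrMYB092 goes from 3.29 to 4.50 on the left and is 4.35, 3.70 and 4.09 on the right.

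A slope of the level on log2 of the dose was fitted for every gene within the libraries of a construct (limma over all 9 libraries, 4 residual degrees of freedom). The slope is the log2 difference in level for each doubling of the TF. No slope passed an adjusted p under 0.05 among 7651 genes for either TF (0% called, limma). Of these 7651, 525 for PtrHSFB3-1 and 829 for PtrMYB092 were under an unadjusted p of 0.05 (limma). Among the 20 monolignol genes 1 was for each TF, with a negative slope for PtrHSFB3-1 and a positive one for PtrMYB092. For PtrHSFB3-1 the median slope of the 20 monolignol genes was -0.95, with 2 of 20 positive, against -0.01 and 49.3% positive over all genes. The smallest were those of PtrPAL3 (-2.36, SE 1.90), PtrHCT6 (-2.19, SE 0.92) and PtrPAL2 (-2.15, SE 1.40), and the largest those of PtrCAD1 (0.34, SE 0.65), PtrCAld5H2 (0.10, SE 0.77) and PtrCSE2 (-0.17, SE 0.37). For PtrMYB092 the median was -0.01, with 10 of 20 positive, as for 49.1% of all genes. The smallest were those of PtrPAL3 (-0.61, SE 1.39), PtrPAL1 (-0.55, SE 0.82) and PtrHCT6 (-0.42, SE 0.67), and the largest those of PtrCSE2 (0.67, SE 0.27), PtrCAld5H2 (0.49, SE 0.57) and PtrCCoAOMT1 (0.48, SE 0.30). The list's median rests on single libraries, being 0.46 without PtrHSFB3-1 replicate 1, -2.85 without PtrHSFB3-1 replicate 3 and, for PtrMYB092, -1.03 without PtrMYB092 replicate 3.

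The replicate number was then used as a block, which is meant to take out what the 3 libraries of a number share. This left 2 residual degrees of freedom, and slopes were called. For PtrMYB092, 12 genes passed (6 positive and 6 negative, 0.0784% of those tested each), and PtrPAL2 (2.36, SE 0.26; adjusted p = 0.024), PtrPAL4 (3.04, SE 0.29; adjusted p = 0.0114) and PtrPAL5 (2.16, SE 0.31; adjusted p = 0.04) were 3 of those 6 (limma). For PtrHSFB3-1, 288 genes passed (61 positive, 0.797% of those tested, and 227 negative, 2.97%), among them PtrPAL4 (3.17, SE 0.39; adjusted p = 0.0145), PtrPAL5 (1.84, SE 0.42; adjusted p = 0.0468) and PtrC4H1 (2.20, SE 0.51; adjusted p = 0.0494), all positive (limma). The median slope of the list was 0.76 for PtrMYB092, with 18 of 20 positive, and 0.12 for PtrHSFB3-1, with 13 of 20 positive, where 44.7% and 44.2% of all genes were positive. PtrPAL4 and PtrPAL5 thus passed for both TFs. In GFP replicates 1, 2 and 3, PtrPAL2 was at 27, 5 and 2 and PtrPAL5 at 18, 2 and 1, so their GFP values ended near 0. From replicate 1 to 3, the log2 levels of PtrPAL2, PtrPAL4 and PtrPAL5 differed by -3.17, -4.22 and -3.18 with GFP. With PtrMYB092 these differences were 0.002, -0.12 and -0.24. These fits share the GFP libraries, and the dose, the replicate number and the GFP level have nearly the same or the opposite order. The block thus rests on the assumption that the excess of GFP replicate 1 would be the same in the TF libraries of that number. As each TF has its own slope, the block is set mainly by the single GFP library of each number. The slopes with the block are therefore not separate evidence from the responses over that library. Their standard errors and adjusted p-values do not measure how far GFP libraries of the same number would vary.

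**Figure D5:**
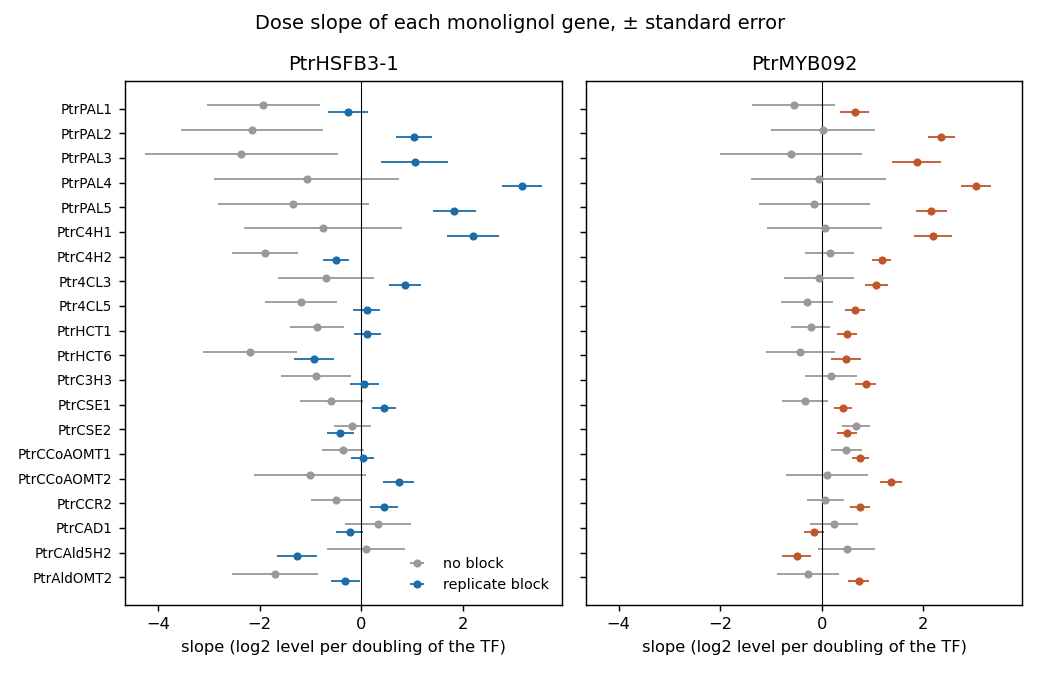
Slope of the level on log2 of the dose, ± standard error, for each of the 20 monolignol genes, for PtrHSFB3-1 (left) and PtrMYB092 (right), without a block (grey) and with the replicate number as a block (blue and orange). Without a block all slopes have an adjusted p of at least 0.455, and with it PtrPAL4 has slopes of 3.17 and 3.04.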

How the data were processed

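TruSeq libraries of total RNA from transfected SDX protoplasts were sequenced on HiSeq instruments. Per the study's methods the reads were mapped with Bowtie 2 to the poplar genome, while TopHat appears in the submitters' processing notes. How reads were counted, with or without strand, and how reads of near-identical paralogs were assigned is not given in the sources used here, so a gene with such a copy has an uncertain value. The authors deposited 1 table of whole numbers labelled as raw counts, used here as a score of unknown scale, and count models were not run.

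Libraries were grouped by title. Values were scaled to the median column total by an unweighted TMM over the genes kept (trim of 30% for ratios and 5% for levels), then transformed to log2(value + 1), which understates differences of low genes. A gene was kept if 3 or more libraries had a value of 10 or higher and its values summed to 15 or more. This applied to 7653 of 27542 genes above 0. All 9 libraries were fitted with limma 3.58.1 in R 4.3.3 (moderation by a trend). The thresholds for a call were those of the study, a fold change above 2 or below 0.8 with a Benjamini-Hochberg adjusted p below 0.05. Slopes and orders leave out both TFs (7651 genes). The fits were also run on simulated data. There the libraries varied independently, and the spread for the slopes was smaller than in the data. The simulation thus cannot show how the slope fits behave when libraries of a replicate number deviate together.

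Numbers were taken to pair libraries because deviations from group means, correlated across genes, gave 0.516 to 0.863 for the 9 pairs of the same number, against -0.706 to 0.267 for the 18 between groups with different numbers.

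The members, gene lists, rules and tests were chosen with earlier results of these data known. Named are the TFs, the genes with a name in the study's tables, the 3 largest and 3 smallest slopes of monolignol genes, and the gene most and the gene least like each TF. Gene names are the study's. No coordinates are given: the reference table (assembly P.trichocarpa_v4.1) held 0 of the 41335 gene IDs. Primers were read from the study's supplementary tables. Alternatives were other scalings, a pseudocount of 5, no filter, the replicate block, fits of 6 libraries, an adjusted p under 0.01, the mean of the GFP libraries, the omission of each library, and the omission of PtrMYB092 replicates 2 and 3 together. Replicate 1 of all groups left out and TMM over all genes above 0 were added after the data had been seen.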

Additional observations from a re-analysis of the deposited data

How the results depend on the processing

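Both TFs stayed called in their own libraries in every setting in which they were tested, at a log2 difference of 8.93 to 9.42 for PtrHSFB3-1 and 11.10 to 11.24 for PtrMYB092 with a library left out; PtrMYB092 fell under the filter when one of its own libraries was left out. PtrHSFB3-1 in the PtrMYB092 libraries kept its direction, at 1.04 to 1.40 with a library left out, and lost its call with median-of-ratios scaling (1.16), column totals (1.13), column totals without the TFs (1.17), TMM over all genes (1.12), no filter (1.22), replicate 1 of all groups left out (1.38) and without PtrMYB092 replicates 2 and 3 (1.18); its adjusted p in these and the other fits was 0.00348 to 0.419 (limma). PtrMYB092 in the PtrHSFB3-1 libraries was called in none. Without PtrMYB092 replicates 2 and 3 that arm is 1 library, assumed to vary like the other groups, so a loss of calls there says little of stability.

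Genes higher with PtrHSFB3-1 (542) numbered 1079 with no filter, 322 at an adjusted p under 0.01 and 197 to 556 with a library left out, the lowest without PtrHSFB3-1 replicate 3 and 322 without PtrHSFB3-1 replicate 1. Genes lower (230) numbered 858 and 439 by column totals with and without the TFs, 557 by TMM over all genes, 1296 with the replicate block, 113 in a fit of 6 libraries, 27 at an adjusted p under 0.01, 131 without PtrMYB092 replicates 2 and 3, and 23 to 250 with a library left out. Genes higher with PtrMYB092 (352) numbered 832 with no filter, 1 without PtrMYB092 replicates 2 and 3, and 143 to 375 with a library left out, the lowest without PtrMYB092 replicate 3. Genes lower (28) numbered 45 by column totals, 47 by TMM over all genes, 57 with no filter, 584 with the replicate block, 18 in a fit of 6 libraries, 3 at an adjusted p under 0.01, 0 without PtrMYB092 replicates 2 and 3, and 3 to 46 with a library left out.

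Responses in the order of the dose were those of 0 monolignol genes for either TF over the mean of the GFP libraries, and for PtrHSFB3-1 (10) of 16 with replicate 1 of all groups left out and of 10 to 17 with a library left out. Where that is a PtrHSFB3-1 or GFP library only 2 doses remain, and 41.6% to 52.5% of all genes were then in the order of the dose (19.7% with 3 doses; 52.5% beside the 17 genes without GFP replicate 1). The median response to PtrHSFB3-1 in replicate 1 (1.99) was 1.54 and 1.60 by column totals with and without the TFs, 1.77 by TMM over all genes, 1.78 with a pseudocount of 5, 1.73 with no filter and 2.86 over the GFP mean. That in replicate 2 (1.69) was 1.41 with no filter and 1.96 with replicate 1 of all groups left out, and that in replicate 3 (2.07) was 1.75 with a pseudocount of 5, 1.77 with no filter, 1.64 over the GFP mean and 2.42 with replicate 1 of all groups left out. The median response to PtrMYB092 was 4.35 in replicate 1 over the GFP mean and 3.39 in replicate 2 with a pseudocount of 5.

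Slopes were called for 288 and 12 genes (PtrHSFB3-1 and PtrMYB092) with the replicate block, against 0 and 0. With replicate 1 of all groups left out, 16 and 43 passed, but each slope is then a difference between 2 single libraries and the spread comes from GFP replicates 2 and 3 alone, so these counts are no test of a dose relation. The median slope of the monolignol genes was 0.12 and 0.76 with the block. For PtrHSFB3-1 it was 0.47 with replicate 1 of all groups left out and -2.85 to 0.46 with a library left out, and for PtrMYB092 -1.03 to 0.53 with a library left out. The cause of these shifts was not tested.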

Other observations

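Monolignol genes under the filter on low values were PtrCCoAOMT3, listed at 0 or 1 in all 9 libraries, and PtrCAld5H1, which hydroxylates coniferaldehyde towards syringyl lignin. PtrCAld5H1 was at 1, 1 and 2 with GFP, at 0, 1 and 1 with PtrHSFB3-1, and at 1, 5 and 12 in PtrMYB092 replicates 1, 2 and 3, whose doses were 6922, 11036 and 17727. Its highest value was thus in the library with the highest dose of PtrMYB092, and the groups overlapped. The hemicellulose genes PtrCslA2 and PtrIRX10-1 were listed at 0 in all GFP and PtrHSFB3-1 libraries, and at 1, 0 and 0 and at 1, 1 and 1 with PtrMYB092. These genes were not tested.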
